A study of Mus musculus with 2 samples.

Results

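The replication-dependent histone genes encode the core histones H2A, H2B, H3 and H4 and the linker histone H1 that package newly made DNA. Members were all 70 genes, of 41214 in the deposited mouse gene table, whose symbol starts with Hist1h, Hist2h, Hist3h or Hist4h. They were grouped by gene cluster and by the histone type in the symbol. By cluster, 56 were Hist1, 10 Hist2, 3 Hist3 and 1 Hist4 genes. By type, 6 encoded H1, 20 H2A, 19 H2B, 12 H3 and 13 H4, and 2 of the 70 were listed as pseudogenes.

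RNA came from germinal centre B cells, the dividing B cells of immunized lymphoid organs, sorted from spleen by their surface markers (B220, Fas and GL7 present, CD138 absent). C57BL/6 mice had been immunized with sheep red blood cells given intravenously, and cells were taken on day 10. The 2 libraries were 1 labelled wild type and 1 labelled Cbl-/-Cblb-/-, that is, deleted for the E3 ubiquitin ligase genes Cbl and Cblb. The labels give neither age, number of animals, alleles nor any Cre driver. The libraries held 26749540 (wild type) and 38223328 (Cbl-/-Cblb-/-) reads assigned to genes. With 1 library per group no test was possible, intervals are 95% and cover counting error only, and differences are between the labelled libraries. Paired values give the knockout-labelled library (Cbl-/-Cblb-/-) first and the wild-type-labelled library second, and reads are normalized to library size unless called raw.

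Neither deleted gene was low in the knockout-labelled library. Cbl had 1183 and 169 normalized reads and Cblb 2839 and 1001, so both were higher in the library labelled as lacking them. Which part of either gene was deleted was not given, so reads outside it cannot be told apart from an intact gene, and all directions below are those of the labels. The defining B cell gene Cd79a and the germinal centre gene Bcl6 were abundant in both libraries (at least 7995 normalized reads). Of 5 T cell genes looked up, none reached 20 normalized reads in either library. Of 4 macrophage genes measured, 3 had at least 100 normalized reads in a library, and their sums were 891 and 1416. Of 5 erythroid genes, 1 did (Hbb-bt, 30.8 and 594), with sums of 58.7 and 660, and the 4 plasma cell genes measured summed to 7462 and 5790. The part of these cells in the histone values was not tested.

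Cells make most of these histones only during S phase, when transcription of the clustered genes is driven by the coactivator NPAT. Most replication-dependent histone mRNAs have no introns and no poly(A) tail, and end in a conserved stem-loop that is bound by the protein SLBP. Some members can also be read through to a poly(A) signal further downstream, which gives tailed mRNA in differentiated or non-dividing cells as well. The labels name the library kit but not whether poly(A) RNA was selected, so the share of tailless mRNA that was captured is unknown.

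The stem-loop is shown because it sets how an mRNA of this family ends. The 16-base pattern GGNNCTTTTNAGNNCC was searched on the sense strand of GENCODE M21 transcripts (GRCm38). With all transcripts of a gene searched, it was found in 44 of 66 members annotated as protein-coding and in 34 of 21885 other protein-coding genes (0.155%). In the 1 transcript per member used below it was found in 43 of 70, and a missing match says only that those letters are not in that model. The most frequent form, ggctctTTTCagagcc, occurred in 25 members and in every type except H4. H4 genes carried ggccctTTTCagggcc in 7 cases, and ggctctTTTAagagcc was found in 6 members of types H1, H2B and H3. The windows below hold the stem-loop with 5 bases on each side and the 4-base loop in capitals, for members that the values turn on.
Hist1h1c: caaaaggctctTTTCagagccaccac
Hist3h2a: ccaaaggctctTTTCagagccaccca
Hist1h2bj: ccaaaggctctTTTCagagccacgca
Hist3h2ba: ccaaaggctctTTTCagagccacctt
Hist1h3e: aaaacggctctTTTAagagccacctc
Hist1h4i: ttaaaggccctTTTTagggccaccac
In the annotated models, Hist1h2bj ended 23 bases after its stem-loop, whereas Hist1h4i ran on for 330 bases, Hist1h1c for 840 and Hist3h2a for 1643. A poly(A) signal, which was searched as AATAAA and in its variant form ATTAAA, stood in the last 50 bases of 16 of the 70 member models, against 68.9% of the longest transcripts of other protein-coding genes. These are 30-base windows at such model ends, with the signal in capitals, for the 5 members with a signal and at least 100 normalized reads in a library.
Hist1h1c: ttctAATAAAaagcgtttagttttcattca
Hist1h4i: tctgtttacATTAAAagtattctatgctaa
Hist2h2be: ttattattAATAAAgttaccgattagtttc
Hist3h2a: AATAAAataagagtacgtgtataacataag
Hist3h2ba: attAATAAAtttggttcaattttggccaca

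Summed over all members, histone reads were scarcer in the knockout-labelled library. There were 2320 and 3811 raw reads, or 1622 and 5452 after normalization. That is a 3.36-fold lower sum (3.19 to 3.54). As a share of all assigned reads, histones made up 0.00607% (Wilson interval 0.00583 to 0.00632) and 0.0142% (0.0138 to 0.0147). All 5 types were lower in the knockout-labelled library. Of the 64 members with a read, 54 were at least 2-fold lower there, beside 24.4% of 19179 genes with a read. At least 2-fold higher were 2 members, beside 28.6% of those genes. In a bulk library, fewer cells in S phase and less histone RNA per cell cannot be told apart. Whether tailless mRNA was captured equally in both libraries is also unknown. Of 512 other short genes (312 to 848 bases) with at least 100 normalized reads in a library, 68.6% were at least 2-fold lower. At least 2-fold higher were 14.8% of them. The parts of capture and of gene length in the lower histone sum were not tested.

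By type, H3 and H2A genes differed most and H1 genes least. H3 sums were 55.9 and 318 normalized reads, 5.68-fold lower (4.38 to 7.43). H2A sums were 117 and 638, 5.47-fold lower (4.57 to 6.57). H4, whose many genes encode almost the same protein, had 373 and 1302 (3.49-fold, 3.14 to 3.90). For H2B the sums were 557 and 1843 (3.31-fold, 3.03 to 3.62). H1 had 519 and 1352, 2.60-fold lower (2.36 to 2.87). The intervals of H3 and H2A overlapped each other but none of the other 3.

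The order of the types depended on a few members. The member with most raw reads in both libraries together was left out of each type. Each type except H3 was then lower by more: H1 without Hist1h1c by 5.47-fold (4.58 to 6.56), H2A without Hist3h2a by 7.94-fold (6.23 to 10.2), H2B without Hist2h2be by 4.69-fold (4.22 to 5.22) and H4 without Hist1h4i by 6.41-fold (5.30 to 7.80). By normalized reads the top H2B member was instead Hist3h2ba (65.7 and 423, against 203 and 183 for Hist2h2be). Hist3h2ba was 6.45-fold lower, more than the H2B sum, so the H2B result depends on which member is left out. H3 without Hist1h3e was 5.04-fold lower (3.81 to 6.74). Hist1h1c, Hist1h4i and Hist2h2be together took up a larger part of the histone reads in the knockout-labelled library. Hist1h1c made up 24.6% (22.9 to 26.4) and 12.7% (11.7 to 13.8) of them. For Hist1h4i these shares were 16.8% and 12.1%, and for Hist2h2be 12.5% and 3.36%.

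**Figure D1:**
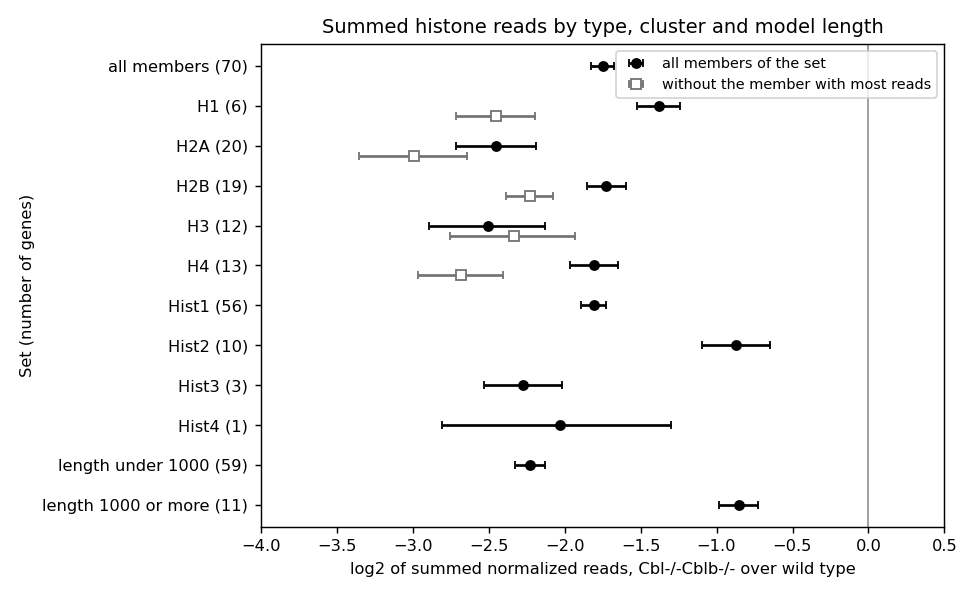
Points are log2 ratios of summed normalized reads, knockout-labelled over wild-type-labelled library, for all members, each histone type, each cluster and members split at a deposited length of 1000 bases, with 95% counting intervals as bars. Open squares leave out the member with most raw reads of a type, and all points lie below 0, the filled ones from -0.85 for the longer models to -2.51 for H3 and the open ones down to -2.99 for H2A.

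Among linker histones, the 5 expressed H1 genes shared few 50-base stretches with other genes (at most 8.54%), though exons of Hist1h1e overlap those of Hist1h2be. Hist1h1c (ENSMUSG00000036181, chr13:23738808-23740367, plus strand, GRCm38) encodes H1.2 and had 399 and 694 normalized reads. It was 1.74-fold lower (1.54 to 1.97), the smallest difference among the H1 genes. Hist1h1a had 20.97 and 152, a 7.23-fold lower value (4.78 to 11.2). Hist1h1d had 29.4 and 190 (6.48-fold, 4.55 to 9.40). Hist1h1e, with 36.3 and 166, and Hist1h1b, with 32.9 and 150, were both 4.57-fold lower (3.26 to 6.46 and 3.21 to 6.60). Hist1h1c has the longest H1 model in the deposited table, 1560 bases against 642 to 748. Hist1h1t, the testis linker histone gene, had 1 raw read in all.

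Of the members with at least 100 normalized reads in a library, those that differed most and least were both H2B genes. Hist1h2bj (ENSMUSG00000069300, chr13:22043214-22043676, plus strand) had 29.4 and 230 normalized reads, 7.85-fold lower (5.56 to 11.3). Hist1h2bb had 18.9 and 137 (7.28-fold, 4.71 to 11.6) and Hist3h2ba 65.7 and 423 (6.45-fold, 5.09 to 8.22). Hist1h2bc, with 72.7 and 306, was 4.21-fold lower (3.32 to 5.38). Against these, Hist2h2be (ENSMUSG00000068854, chr3:96221119-96223738, plus strand) had 203 and 183, a 1.11-fold higher value (0.899 to 1.38). Hist1h2bg, with fewer reads, was likewise near parity with 62.9 and 57.2 (1.10-fold, 0.749 to 1.64), and Hist1h2be had 35.6 and 57.2. Intervals of Hist2h2be and Hist1h2bg included 1. Exons of Hist1h2be overlap those of Hist1h1e in the annotation. Of the 50-base stretches of Hist1h2bg 49.7% occur in another gene, and of those of Hist1h2bj 59.4%. The counts of Hist1h2be, Hist1h2bg and Hist1h2bj are thus uncertain in origin.

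**Figure D2:**
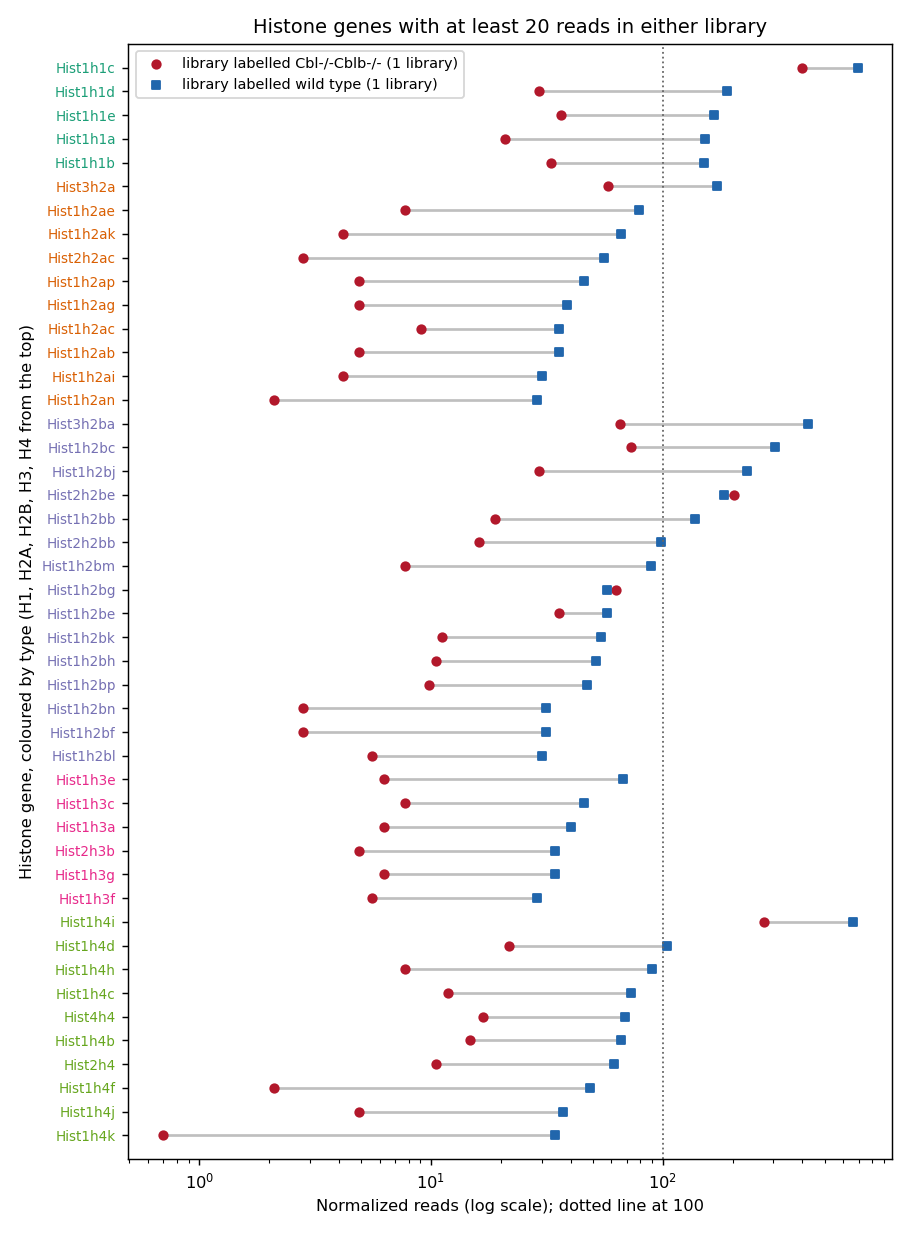
Each row is 1 of the 46 histone genes with at least 20 raw reads in either library, grouped by type from H1 at the top to H4 at the bottom, and the horizontal axis gives normalized reads on a log scale. Circles are the knockout-labelled and squares the wild-type-labelled library (1 each), and the circle lies right of the square for Hist2h2be and Hist1h2bg and left of it in the other rows.

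Promoters of an H2B gene with a large and one with a small difference are printed for comparison, since no window was matched for Hist2h2be (RefSeq, GRCm38.p6, 250 bases before to 50 after the start, plus strand). Capitals mark 3 motifs searched on both strands: the octamer ATTTGCAT, a known element of H2B promoters, the box TATAAA of core promoters, and CCAAT, a common element in promoters of cell cycle genes.
The 2 windows lie at chr13:22042948-22043247 (Hist1h2bj) and chr13:23571150-23571449 (Hist1h2bg).
Hist1h2bj: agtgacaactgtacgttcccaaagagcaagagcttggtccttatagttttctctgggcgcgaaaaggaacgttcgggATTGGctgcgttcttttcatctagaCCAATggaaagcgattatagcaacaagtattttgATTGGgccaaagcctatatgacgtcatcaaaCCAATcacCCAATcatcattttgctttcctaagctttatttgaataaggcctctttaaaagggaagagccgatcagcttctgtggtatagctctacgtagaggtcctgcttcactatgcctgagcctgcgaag
Hist1h2bg: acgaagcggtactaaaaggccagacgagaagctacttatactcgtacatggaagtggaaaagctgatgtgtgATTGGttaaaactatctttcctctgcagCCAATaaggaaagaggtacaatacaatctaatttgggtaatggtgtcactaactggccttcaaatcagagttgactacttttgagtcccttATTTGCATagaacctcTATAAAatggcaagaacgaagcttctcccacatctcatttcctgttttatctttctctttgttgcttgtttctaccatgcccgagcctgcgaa
The first window held 5 CCAAT matches and neither other motif, and the second held all 3 motifs. The windows of Hist1h2bb (7.28-fold lower) and Hist1h2bk (4.86-fold lower) also held all 3, so this pair stands for no wider contrast. Promoter windows were found for 61 members, by symbol synonyms. The octamer was in 7 of 16 H2B and 7 of 17 H2A windows and in no H1, H3 or H4 window, against 1.74% of 32851 promoters. CCAAT was in every H1, H2A, H2B and H3 window and in 3 of 12 H4 windows, against 37.4% of all promoters, and TATAAA in 57.4% of member windows against 13.6%. Many H2A and H2B genes are transcribed away from each other from neighbouring starts, so their windows can share bases.

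By normalized reads, H4 and H2A each had 1 member that stood above the rest. Hist1h4i (ENSMUSG00000060639, chr13:22040636-22041362, minus strand) had 273 and 661 normalized reads, 2.42-fold lower (2.11 to 2.78), and per length it was the most abundant member in both libraries (11.5 and 28.0 deposited FPKM). The next H4 gene, Hist1h4d, had 21.7 and 104 (4.82-fold, 3.13 to 7.59). Hist3h2a (ENSMUSG00000078851, chr11:58954685-58956830, plus strand) was the only H2A gene to reach 100 normalized reads in a library, with 58.0 and 172 normalized reads (2.96-fold, 2.22 to 3.96). Exons of Trim17 overlap it, as exons of some other gene do for 26 of the 70 members, and whether reads were counted by strand was not given, so the origin of such reads is uncertain. All other H2A genes had at most 78.7 normalized reads. Per length, Hist3h2a (2146 bases) was not the highest H2A gene in the wild-type-labelled library. It had 0.832 and 2.46 deposited FPKM, against 0.514 and 5.26 for Hist1h2ae.

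Below 100 normalized reads, 33 members had at least 20 raw reads in a library. Only Hist1h2be, Hist1h2bg, Hist1h4b, Hist2h2bb and Hist4h4 had that many in the knockout-labelled library. The rest passed only through the wild-type-labelled library, so the folds and counts below describe single genes and cannot stand for their types. Among 9 such H2A genes the difference ran from 3.94-fold lower (1.94 to 8.38) for Hist1h2ac, with 9.09 and 35.8 normalized reads, to 19.96-fold lower (7.20 to 76.9) for Hist2h2ac, with 2.80 and 55.8. The other H2A genes were Hist1h2ab, Hist1h2ae, Hist1h2ag, Hist1h2ai, Hist1h2ak, Hist1h2an and Hist1h2ap. The 8 H4 genes were 4.09-fold lower (Hist4h4) to 49.1-fold lower (Hist1h4k, 1 raw read against 24, 8.01 to 2020), the others being Hist1h4b, Hist1h4c, Hist1h4f, Hist1h4h, Hist1h4j and Hist2h4. The 6 H3 genes, Hist1h3a, Hist1h3c, Hist1h3e, Hist1h3f, Hist1h3g and Hist2h3b, were 5.12-fold to 10.7-fold lower, the last for Hist1h3e with 6.29 and 67.2. Of 10 H2B genes, 9 were lower, from Hist1h2be at 1.61-fold (1.03 to 2.48) to Hist1h2bm at 11.5-fold (6.02 to 24.3), with Hist1h2bf, Hist1h2bh, Hist1h2bk, Hist1h2bl, Hist1h2bn, Hist1h2bp and Hist2h2bb between them. The gene that the table calls Hist2h2bb carries another name and is a noncoding model in GENCODE M21, so its 16.1 and 98.7 reads may not come from a histone mRNA.

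The last 24 members had fewer than 20 raw reads in each library. Of these, 6 had no read, among them the testis genes Hist1h2aa and Hist1h2ba, and a count of 0 allows up to 3 raw reads per library. Many members are near copies of each other: the median member had 48.2% of its 50-base stretches (the read length) in annotated transcripts of another gene, and 32 of the 70 had over 50%. The medians by type were 1.13% for H1, 39.5% for H4, 43.8% for H2B, 57.2% for H3 and 73.2% for H2A. Hist2h2aa1 shared all its stretches and had 2 and 0 raw reads. How reads with several matches were handled is not stated.

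The floor used for counts over genes, 100 normalized reads in whichever library was higher, was reached by 13 members, with Hist2h2bb (98.7) and Hist1h4h (90.1) just outside. Of the 13, 11 were at least 2-fold lower in the knockout-labelled library and 0 at least 2-fold higher, beside 23.3% and 27.8% of all 10443 genes over that floor. Their median log2 ratio was -2.16, against 0.15 over all those genes. Since 10 of the 13 passed only through the wild-type-labelled library, this count cannot stand for the family. Among all genes with a read, 54 of 64 members were at least 2-fold lower, against 24.4% of 19179 genes, and 2 were at least 2-fold higher, against 28.6%. Those 2, Hist1h2ao and Hist2h2aa1, had 2 raw reads against 0. With a floor of 20, 45 of 49 members were at least 2-fold lower and 0 at least 2-fold higher, beside 24.3% and 28.2% of 12683 genes, but 35 of these 49 passed only through the wild-type-labelled library, so that count cannot stand for the family either. In 53 of the 60 members with reads in both libraries the counting interval lay wholly below parity and in 0 wholly above, beside 35.2% and 38.6% of 15682 genes with reads in both.

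Histone genes are short, and short genes as a class were lower in the knockout-labelled library. Members under 1000 bases (59 genes, 312 to 848 bases) had summed values of 878 and 4109 normalized reads, 4.68-fold lower (4.38 to 5.01). The 11 longer models had 744 and 1343, 1.81-fold lower (1.65 to 1.97). Among the other 512 genes of the short length range over the floor, the median log2 ratio was -1.99, with 68.6% at least 2-fold lower and 14.8% at least 2-fold higher. The 10 short members over the floor had a median of -2.44, but 9 of them passed only through the wild-type-labelled library, so nothing is read from setting the medians side by side. Of short members with any read, 49 of 55 were at least 2-fold lower, beside 47.3% of 2186 other genes of that length, of which 21.3% were at least 2-fold higher. Those other genes were not matched to the members for read depth, and their lower share was larger over the floor (68.6%). The part of length in the histone values was not tested beyond these counts and the fit that follows.

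With a fit on length removed over all genes, the 13 members over the floor had a median of -1.10, against -0.07 over all genes so adjusted. Of the 13, 10 were over the floor in the wild-type-labelled library only. At least 2-fold lower were 8 members, beside 21.3% of all genes so adjusted, and at least 2-fold higher 0 members, beside 18.1%. The fit did not take up all of the trend at short lengths. It raised a ratio of 0 at 390 bases (Hist1h2aa) to 1.22. Other short genes over the floor had a median of -1.99 before adjustment. The adjusted values are therefore not free of length, and all genes are no length-matched background for them. After adjustment, Hist1h2bj stood at -1.73, Hist1h1a at -1.68, Hist1h1d and Hist1h2bb both at -1.59 and Hist3h2ba at -1.54. Hist1h4i at -0.20, Hist1h1c at -0.13 and Hist2h2be at 0.39 were near 0. Those 3 members, and Hist3h2a at -1.13 and Hist3h2ba, are the ones of the 13 whose models end at a poly(A) signal, so of these 5 members 3 were near 0 after adjustment and the others were not. Summed over the 16 members with such an end, reads were 1095 and 2595 (2.37-fold lower, 2.21 to 2.54), and over the other 54 they were 527 and 2857 (5.42-fold, 4.98 to 5.90). Of the 1566 and 1814 raw reads of the members with such an end, Hist1h1c gave 571 and 485. Hist1h4i gave 390 and 462, and Hist2h2be 291 and 128, so these 3 genes made up most of that sum. The split by model end was made with the values known, and newer models exceed the deposited length by over 100 bases for 16 members.

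**Figure D3:**
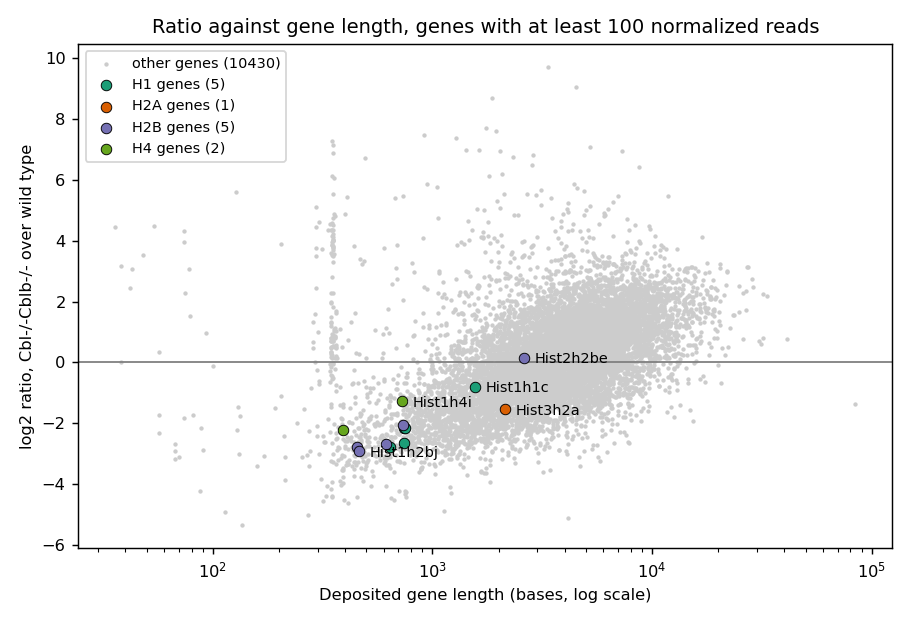
The log2 ratio of each gene with at least 100 normalized reads (knockout-labelled over wild-type-labelled library, vertical axis) is drawn against its deposited length in bases (log scale). Coloured points are the 13 histone genes and grey points the other 10430 genes, and the histone genes under 1000 bases lie between -1.27 and -2.93.

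By cluster, sums were lower in all 4. Hist1, on chromosome 13, had 1235 and 4329 normalized reads, a log2 ratio of -1.81 (-1.89 to -1.72). Hist3, on chromosome 11, stood at -2.27 (-2.53 to -2.02) with 126 and 608, and the single Hist4 gene, on chromosome 6, at -2.03 (-2.80 to -1.30). Hist2, on chromosome 3, stood at -0.87 (-1.10 to -0.65) with 244 and 446, and at -2.70 without Hist2h2be. The smaller difference of Hist2 thus rested on 1 gene.

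Within Hist1, genes separated by over 150 kb formed 3 groups with reads. The first (chr13:21715763-21837530, 19 genes) had a log2 ratio of -2.78 (-3.06 to -2.50), the second (chr13:22035164-22043676, 5 genes) -1.64 (-1.82 to -1.47) and the third (chr13:23531050-23764406, 29 genes) -1.71 (-1.81 to -1.60). Left without its member with most raw reads, the second group stood at -2.84 (without Hist1h4i) and the third at -2.24 (without Hist1h1c), while the first stood at -3.01 without Hist1h1b. Hist1h4i lies near Hist1h2ag and Hist1h2bj, which were 7.89-fold and 7.85-fold lower, so neighbouring genes differed by different amounts. Hist1h2ag and Hist1h2bj had 78.9% and 59.4% of their 50-base stretches in another gene, so the origin of their reads is uncertain.

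**Figure D4:**
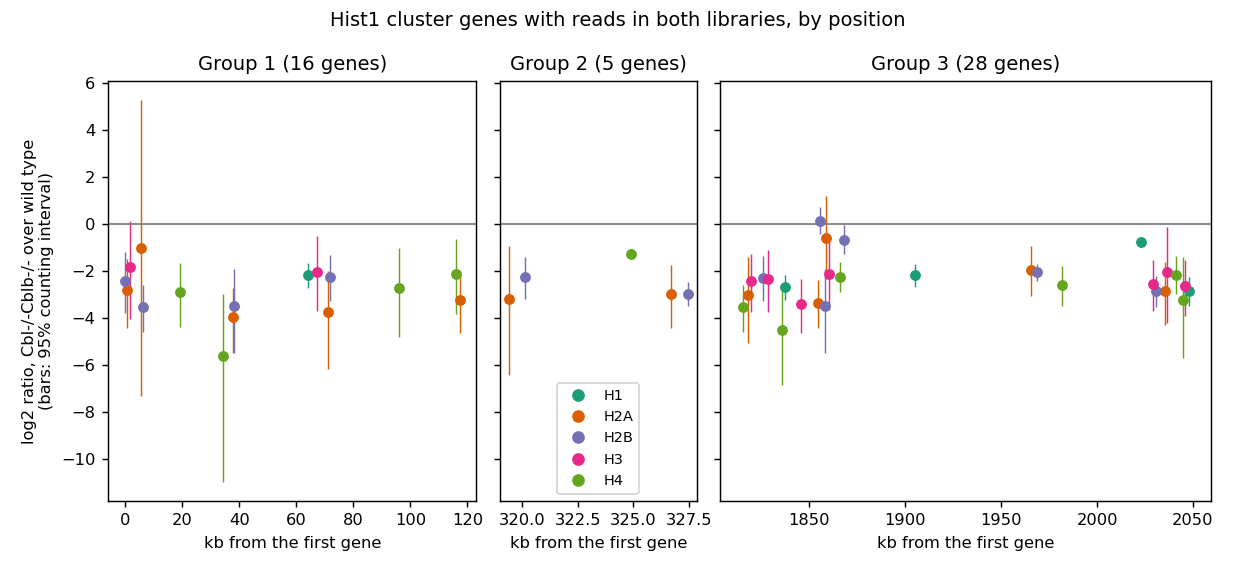
The 49 Hist1 genes with reads in both libraries are drawn by distance in kb from the first gene of Hist1, in 3 groups, with the log2 ratio (knockout-labelled over wild-type-labelled library) on the vertical axis and 95% counting intervals as bars. Colours give the histone type, and all but Hist1h2bg lie below 0.

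Variant histone genes outside the clusters, most of them expressed through the cell cycle from mRNA with a poly(A) tail, were measured in the same libraries. Of 11 listed, 10 were over the floor, with 5 at least 2-fold lower and 0 at least 2-fold higher, beside 23.3% and 27.8% of all genes. Their median log2 ratio was -1.05, or -0.74 after adjustment for length. H2afj had 545 and 5086 normalized reads, 9.34-fold lower (8.64 to 10.1). The linker variant gene H1fx was 8.14-fold lower (7.77 to 8.54), H2afv 3.02-fold lower (2.90 to 3.15) and H2afx, whose phosphorylated product marks DNA breaks, 2.60-fold lower (2.54 to 2.66). The variant sums of 81290 and 153911 normalized reads were far above the 1622 and 5452 of the 70 clustered genes. These sums do not compare mRNA levels of the 2 sets. They are not per length, and the captured share of tailless mRNA and the handling of reads with several matches are unknown.

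Of 25 listed genes for factors that make, process or remove histone mRNA, 24 were over the floor, with 7 at least 2-fold higher and 2 lower by that much, beside 27.8% and 23.3% of all genes, so the higher share was near that of all genes. The median log2 ratio was 0.62, or 0.13 after adjustment for length, beside 0.15 over all genes before adjustment and -0.07 after it. Slbp, the gene of the stem-loop binding protein, had 7891 and 4714 normalized reads, 1.67-fold higher (1.61 to 1.74). Npat, with 1973 and 421, was 4.69-fold higher (4.16 to 5.31), and Casp8ap2, whose product FLASH takes part in histone pre-mRNA processing, 9.03-fold higher (7.95 to 10.3). Zcchc11, a terminal uridylyltransferase gene, was 16.02-fold higher (14.4 to 17.9). Lsm10, a short gene for a subunit of the U7 particle that recognises histone pre-mRNA, was 4.72-fold lower (4.18 to 5.34). Npat, Casp8ap2 and Zcchc11 have long transcripts (6248, 6826 and 8684 bases), and their log2 ratios were 1.505, 2.33 and 2.83 after adjustment for length.

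In the authors' deposited table, 64 members carried a p-value and 0 were under 0.05 before adjustment, the smallest being 0.0611 for Hist2h2ac. The smallest adjusted p of a member there was 0.944, and these values rest on 1 library per group.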

How the data were processed

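Reads came from paired 50-base sequencing of TruSeq libraries, per the labels' protocols. Tools listed in the submitters' processing notes are DESeq2 1.4.5, TopHat2 2.0.10 and featureCounts, with the build GRCm38. Per the file headers, the deposited signal columns hold reads per gene scaled for library size. Dividing each library by 1 value gave whole reads, within 0.001, for 100% of values. The deposited FPKM, so named in the file headers, served only to order members by level per length. The deposited table's base mean signal, log2 fold changes, test score and p-values are the authors'. A count test on recovered reads has no residual degrees of freedom, so none was run and 0 genes are called.

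Log2 ratios of single genes used a pseudocount of 1, and folds and sums none. Ratio intervals are exact conditional, those of shares Wilson. The floor was 100 normalized reads in the higher library. Length adjustment subtracts a quadratic fit on log2 length. Positions and transcripts are GENCODE M21, matched by gene ID for 68 members and by symbol for 2. The ratio, interval and fit were tested on simulated data. Its length trend was linear in log2 length, so it cannot show how well the fit follows the real trend of short genes. Members and lists were chosen with earlier results of these data known. Named were members over the floor or with at least 20 raw reads, up to 4 genes per related list with the largest absolute ratio, and Slbp and Npat. Some marker genes that were looked up are not reported here. Computations used Python 3.11.15, pandas 2.3.3 and scipy 1.17.1.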

Additional observations from a re-analysis of the deposited data

How the results depend on the processing

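No paired analysis was possible because each group has 1 library. Total-read scaling adds 0.52 to every log2 ratio. Summed log2 ratios were then -0.86 (H1), -1.93 (H2A), -1.21 (H2B), -1.99 (H3), -1.29 (H4), -1.29 (Hist1), -0.35 (Hist2) and -1.75 (Hist3), and list medians 1.14 (mRNA factors), 0.79 (chaperones) and 0.69 (S phase genes). Without models of 1000 bases or more, the sums were -2.45 (H1), -2.99 (H2A), -2.31 (H2B), -2.16 (Hist1), -3.29 (Hist2) and -2.69 (Hist3), shares were 0.00329% and 0.0107%, and no Hist4 gene was left. Chosen after seeing the data, leaving out the member with most raw reads gave -2.45 (H1), -2.99 (H2A), -2.23 (H2B), -2.68 (H4), -2.12 (Hist1), -2.70 (Hist2) and -1.62 (Hist3), and leaving out members sharing over 50% of their stretches gave -2.15 (H2A) and -1.53 (H2B). Members at least 2-fold lower numbered 45 with a floor of 20, 1 of 2 with a floor of 500 and 54 with no floor, where 2 were higher. The member median was -1.10 adjusted for length and -1.04 with a floor of 500. Adjustment for length turned the chaperone median to -0.24. Shares without immunoglobulin, ribosomal protein and mitochondrial genes in the denominator were 0.00664% and 0.0184%. Of the single members' alternatives, 22 moved the ratio, 17 did not and 0 changed its sign. In no alternative did a summed ratio or the member median change sign. Low read counts per gene limit single members more than sums.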

Other observations

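Histone chaperones, which carry histones to chromatin, had all 26 listed genes over the floor of 100 normalized reads. In the knockout-labelled library 3 were at least 2-fold higher and 2 lower by that much, beside 27.8% and 23.3% of all genes, and the median log2 ratio was 0.27 (-0.24 after adjustment for length). Atrx, a long gene for a remodeller that acts with DAXX to place H3.3, had 7995 and 914 normalized reads, 8.75-fold higher (8.07 to 9.49). Mms22l was 4.18-fold higher (3.76 to 4.66) and Spty2d1 2.93-fold higher (2.60 to 3.31). Chaf1b, a subunit of the assembly factor CAF-1 that places new H3 and H4 behind replication forks, had 1932 and 7341, 3.80-fold lower (3.63 to 3.98). After adjustment for length, the log2 ratios were 1.08 (Atrx, 3.13 before it), 1.31 (Mms22l), 1.05 (Spty2d1) and -2.37 (Chaf1b).

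S phase genes, which make nucleotides and copy DNA, had all 23 listed genes over the floor, with 2 at least 2-fold higher and 2 lower by that much, beside 27.8% and 23.3% of all genes. Their median log2 ratio was 0.17, or 0.27 after adjustment for length. Mcm4, a subunit of the replicative helicase, was 4.71-fold higher (4.49 to 4.94) and Pola1, of DNA polymerase alpha, 3.65-fold higher (3.43 to 3.89). The nucleotide synthesis genes Tk1 and Tyms were 2.82-fold (2.72 to 2.93) and 2.27-fold (2.14 to 2.41) lower. The other 19 differed by less than 2-fold before adjustment for length. After it, the log2 ratios of the 4 named genes were 2.17 (Mcm4), 0.67 (Pola1, a transcript of 8813 bases), -1.99 (Tk1) and -1.87 (Tyms).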
